A study of Mus musculus with 14 samples.

Results

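Brown adipose tissue of the 14 mice held transcripts of B cells, antibody-secreting plasma cells and T cells, followed here through 9 genes: Igkc, Igha, Ighm, Jchain, Cd79a, Cd79b, Ms4a1, Cd3e and Cd3g. They are 9 of the 35275 genes in the deposited table. The genes were chosen from measured values, since Igkc and Igha are among the largest differences between housing temperatures, so their temperature differences are given as values with no test. A filter of at least 1 FPKM (fragments scaled by transcript length and sequencing depth) in at least 3 animals was passed by 8 of the 9 genes and by 13079 of all genes. Ms4a1 did not pass it.

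All animals were 8-week-old C57BL/6 mice with floxed Lrpprc alleles (LrpprcFF), also the controls, and the labels name no Cre in the controls. Lrpprc encodes an RNA-binding protein of mitochondria. Knockouts (LrpprcBKO) also carried Ucp1-Cre, a recombinase driven by the promoter of the brown adipocyte gene Ucp1, so the deletion is aimed at brown adipocytes and not at lymphocytes. At room temperature (22 °C) there were 4 controls and 4 knockouts, and at thermoneutrality (30 °C) 3 controls and 3 knockouts, each library from a separate animal. RNA came from homogenized tissue, although brown adipocytes are the labelled cell type.

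B cells recognise antigen with membrane-bound immunoglobulin, and after activation some mature into plasma cells, which secrete antibody in very large amounts. An antibody joins heavy chains, whose constant region sets its class, to light chains. T cells carry a receptor that signals through the CD3 chains. Adipose tissue holds resident leukocytes, and lymph nodes lie embedded in fat depots.

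Lrpprc was 23.2 to 47.1 FPKM in room-temperature controls and 9.34 to 12.5 in knockouts, and 28.6 to 31 in thermoneutral controls against 5.95 to 9.91 in knockouts. The recovered depth was 15.9 to 21.3 M fragments per library. The brown adipocyte genes Fabp4, Cidea and Ucp1 had means over all animals of 8480, 1560 and 1400 FPKM. The temperatures also differed in sex-linked transcripts. Xist was 9.01 to 18.4 FPKM in thermoneutral animals and at most 0.0141 at room temperature. Ddx3y was 14.5 to 23.1 at room temperature and at most 0.0244 at thermoneutrality. By these transcripts the thermoneutral animals were female and the room-temperature animals male. Temperature and sex therefore cannot be told apart here, and every temperature ratio below is also a ratio between the sexes. In bulk tissue, fewer cells of a type and less RNA per cell cannot be told apart either. P-values from limma set a difference of group means against the spread among animals within groups, estimated over all 4 groups together.

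The promoters of 4 of the 9 genes were found in the RefSeq table, from 250 bases before to 50 bases after the transcription start in build GRCm38.p6. They are shown because only these listed genes had an entry there. Among them, within groups, Jchain varied with Igkc and Igha, Cd79a varied apart from Igkc and Igha, and Cd3e and Cd3g varied together. Jchain lies on the minus strand at chr5:88527848-88528147, Cd79a on the plus strand at chr7:24897247-24897546, and Cd3e and Cd3g on the minus strand at chr9:45009562-45009861 and chr9:44980382-44980681. Capitals mark matches to 6 motifs searched on both strands.
Jchain: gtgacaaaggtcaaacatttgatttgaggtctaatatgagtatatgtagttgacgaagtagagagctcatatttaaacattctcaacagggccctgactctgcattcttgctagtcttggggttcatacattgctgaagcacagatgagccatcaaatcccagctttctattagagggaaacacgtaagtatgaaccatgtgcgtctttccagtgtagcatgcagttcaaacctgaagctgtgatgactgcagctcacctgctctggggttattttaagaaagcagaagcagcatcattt
Cd79a: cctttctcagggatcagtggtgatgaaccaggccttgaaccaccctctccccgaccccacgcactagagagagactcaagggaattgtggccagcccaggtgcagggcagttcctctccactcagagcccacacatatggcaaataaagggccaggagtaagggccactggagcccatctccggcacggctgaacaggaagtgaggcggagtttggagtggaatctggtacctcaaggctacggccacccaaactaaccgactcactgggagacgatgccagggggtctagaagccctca
Cd3e: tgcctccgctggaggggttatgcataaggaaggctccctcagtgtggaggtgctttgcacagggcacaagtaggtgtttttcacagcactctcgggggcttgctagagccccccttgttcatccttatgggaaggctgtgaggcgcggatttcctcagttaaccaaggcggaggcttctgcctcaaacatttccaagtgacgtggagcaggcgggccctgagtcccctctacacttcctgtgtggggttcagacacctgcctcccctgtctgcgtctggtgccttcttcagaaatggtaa
Cd3g: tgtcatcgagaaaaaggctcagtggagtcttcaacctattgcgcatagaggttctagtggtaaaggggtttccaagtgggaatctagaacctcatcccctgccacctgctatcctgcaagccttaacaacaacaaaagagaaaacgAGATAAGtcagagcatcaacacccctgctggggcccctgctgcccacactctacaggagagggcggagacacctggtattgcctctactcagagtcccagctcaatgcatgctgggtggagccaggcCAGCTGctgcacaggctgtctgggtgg

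The motifs were the octamer ATGCAAAT, the E-box CAGCTG, the palindrome TCCCNNGGGA bound by early B cell factor, TGTGGT of RUNX factors, CCGGAAG of ETS factors and AGATAAG of GATA factors. Of the 32851 RefSeq promoters of this length, 1.74% held the octamer, 16.3% the E-box, 0.904% the palindrome, 16.8% the RUNX letters, 8.86% the ETS letters and 3.04% the GATA letters. Only the Cd3g window held any of these exact letters, with AGATAAG beginning at position -104 relative to the start and CAGCTG after the start. Other forms of the E-box and of the other sites were not searched. A match describes the letters in the window and is not a measured binding site.

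Igkc, the constant region of kappa light chains, had the highest mean level of the 9 genes in each group, and Igha, the constant region of immunoglobulin A (IgA) heavy chains, came next in each. FPKM is a level per transcript length. At room temperature Igkc was 6.95, 6.80, 7.13 and 20.5 FPKM in controls 1 to 4 and 35.1, 13.6, 65.1 and 18.4 in knockouts 1 to 4. At thermoneutrality it was 140, 116 and 461 in controls 1 to 3 and 480, 85.5 and 102 in knockouts 1 to 3. Every thermoneutral animal lay above every room-temperature animal, and control 3 and knockout 1 stood well above their groups. The mean of thermoneutral controls (239 FPKM) was 23.1 times that of room-temperature controls (10.3), and the mean of thermoneutral knockouts (222) was 6.73 times that of room-temperature knockouts (33.0). Without thermoneutral control 3 the ratio in controls was 12.4, and without thermoneutral knockout 1 the ratio in knockouts was 2.84.

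Igha levels at room temperature were 2.69, 3.52, 4.45 and 9.56 FPKM in controls and 19.5, 8.22, 41.2 and 10.7 in knockouts. They were 115, 81.5 and 356 in thermoneutral controls and 362, 83.1 and 43.4 in thermoneutral knockouts. Control 3 and knockout 1 at thermoneutrality were again the highest, whereas thermoneutral knockout 3 was close to room-temperature knockout 3. The ratio of group means between temperatures was 36.4 in controls and 8.18 in knockouts, and after scaling for library composition the knockout ranges overlapped. Without thermoneutral control 3 the ratio in controls was 19.4, and without thermoneutral knockout 1 the ratio in knockouts was 3.18; it was 12.7 without room-temperature knockout 3.

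Jchain encodes the joining chain that links IgA and immunoglobulin M (IgM) units into multimers. It measured 0.665, 1.0, 0.879 and 1.66 FPKM in room-temperature controls and 2.19, 1.16, 5.05 and 2.38 in knockouts. It measured 7.61, 6.22 and 26.2 in thermoneutral controls and 29.6, 7.27 and 3.78 in knockouts. The animals ranked almost as they did for Igha. Thermoneutral knockout 3 fell within the range of room-temperature knockouts.

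Ighm, the constant region of IgM, which naive B cells also carry on their surface, followed another order. It was 3.60, 3.65, 8.26 and 4.56 FPKM in room-temperature controls and 4.05, 6.59, 6.57 and 3.99 in knockouts. At thermoneutrality it was 9.92, 15.1 and 12.6 in controls and 33.1, 9.36 and 37.8 in knockouts. Its highest value was in thermoneutral knockout 3, the animal with the lowest Igha of the thermoneutral animals. The temperature ratio of means was 2.50 in controls and 5.05 in knockouts, with no overlap in either genotype.

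**Figure D1:**
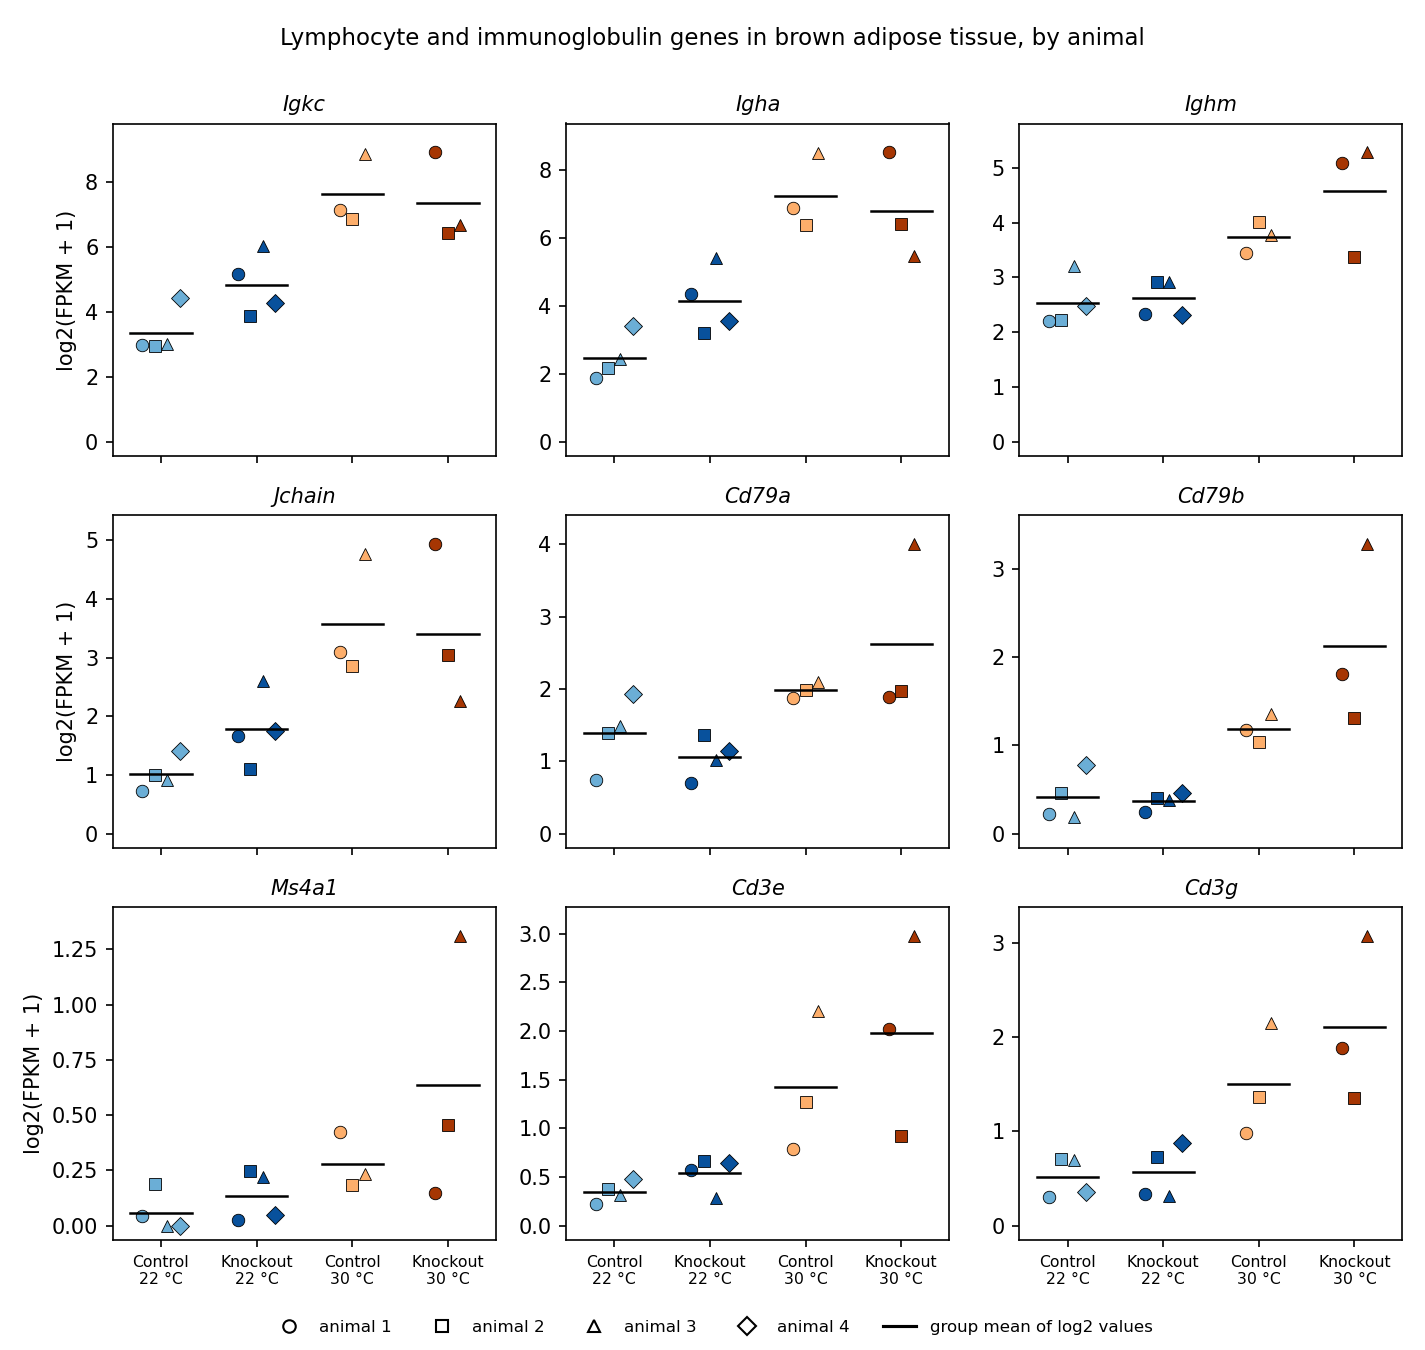
Level of each of the 9 genes as log2(FPKM + 1) in each animal (marker shape gives the animal number, horizontal lines the group mean of the log2 values; vertical scales differ between panels). Igkc, Igha and Jchain peak in thermoneutral control 3 and knockout 1, while the other 6 genes peak in thermoneutral knockout 3.

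The class of heavy chain also varied between animals. Among the summed FPKM of Igha, Ighm and the 4 immunoglobulin G genes, Igha made up 41.5%, 47.0%, 34.4% and 64.3% in room-temperature controls and 72.1%, 52.5%, 74.8% and 66.1% in knockouts. The Igha share was 89.9%, 81.0% and 90.7% in thermoneutral controls and 86.1%, 82.9% and 51.2% in thermoneutral knockouts. In thermoneutral knockout 3, Ighm made up 44.5%, against 3.21% to 15% in the other thermoneutral animals and 11.9% to 63.8% at room temperature. Immunoglobulin G genes never exceeded 13.3% (room-temperature knockout 3). Within them Ighg2b was 0.0966 to 0.280 FPKM in room-temperature controls and 0.619 to 3.42 in knockouts, without overlap, as for 9.38% of tested genes at room temperature, in either direction and in scaled FPKM. The Ighg2b difference of 1.0 ± 0.41 (SE, log2 scale) did not pass limma (adjusted p = 0.253). Reads could have been assigned between the similar Ighg2b and Ighg2c genes, so each value is uncertain.

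**Figure D2:**
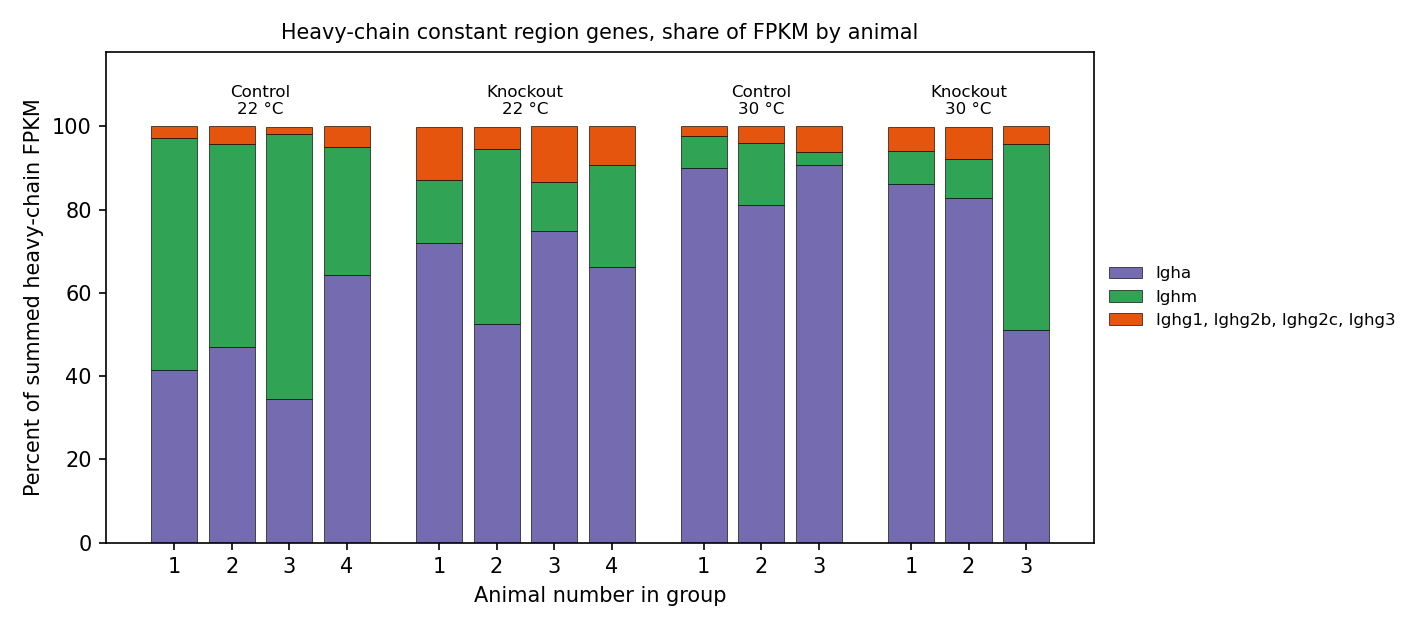
Percent of the summed FPKM of heavy-chain constant region genes taken by Igha, Ighm and the 4 Ighg genes in each animal, grouped by genotype and temperature. Igha takes 81.0% to 90.7% in thermoneutral animals except thermoneutral knockout 3, where it takes 51.2% and Ighm 44.5%.

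Variable segments, which encode the antigen-binding ends of antibodies, gave a view of how many different segments contributed. The table held 214 of them, of which 44 were at 0 in all 14 animals. Room-temperature controls 1 to 4 had reads on 23, 31, 23 and 42 segments, and the knockouts on 62, 47, 98 and 49. Thermoneutral controls had reads on 105, 96 and 141 and knockouts on 138, 99 and 111. These counts move with the number of reads on the segments, estimated at 36 to 110, 128 to 494, 473 to 2131 and 516 to 2211 in the groups in the same order. No heavy-chain segment made up more than 9.75% of the heavy-chain segment FPKM in a thermoneutral animal, and for kappa segments the largest share was 19.2%, Igkv5-39 in thermoneutral knockout 3. Related segments have similar sequences, and reads could have been assigned between them.

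Cd79a and Cd79b encode the paired signalling chains of the B cell receptor. Cd79a was 0.670, 1.62, 1.82 and 2.83 FPKM in room-temperature controls and 0.623, 1.57, 1.03 and 1.21 in knockouts. It was 2.67, 2.96 and 3.29 in thermoneutral controls and 2.70, 2.94 and 15 in thermoneutral knockouts. Thermoneutral knockout 3 was thus far above all other animals, and in controls the temperatures overlapped at 2.83 against 2.67. Cd79b was 0.170, 0.374, 0.137 and 0.711 FPKM in room-temperature controls, 0.187, 0.328, 0.307 and 0.374 in knockouts, 1.25, 1.05 and 1.56 in thermoneutral controls, and 2.49, 1.48 and 8.70 in thermoneutral knockouts. It did not overlap between temperatures in either genotype. The knockout ratio of thermoneutral to room-temperature means was 6.18 for Cd79a and 14.1 for Cd79b, and without thermoneutral knockout 3 these ratios were 2.54 and 6.64.

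Ms4a1 encodes CD20, a surface protein of mature B cells that plasma cells lose. It was the lowest member in every group. No read fell on it in room-temperature controls 3 and 4, which allows up to 0.0478 and 0.0551 FPKM by counting error alone, taking 3 reads as the limit. Room-temperature controls 1 and 2 had 0.0317 and 0.139 FPKM and knockouts 1 to 4 had 0.0174, 0.187, 0.163 and 0.0348. Thermoneutral values were 0.341, 0.135 and 0.177 in controls and 0.107, 0.369 and 1.48 in knockouts. Again thermoneutral knockout 3 was the highest, with 81 reads, and the other animals had 0 to 22 reads, so the temperatures overlapped in both genotypes.

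Cd3e and Cd3g encode 2 of the CD3 chains of the T cell receptor complex. Cd3e was 0.170, 0.299, 0.239 and 0.394 FPKM in room-temperature controls, 0.484, 0.581, 0.219 and 0.559 in knockouts, 0.731, 1.41 and 3.61 in thermoneutral controls, and 3.07, 0.899 and 6.87 in thermoneutral knockouts. Cd3g was 0.238, 0.629, 0.623 and 0.276 in room-temperature controls, 0.261, 0.663, 0.246 and 0.838 in knockouts, 0.975, 1.57 and 3.46 in thermoneutral controls, and 2.71, 1.56 and 7.45 in thermoneutral knockouts. For both genes every thermoneutral animal lay above every room-temperature animal of its genotype. The temperature ratios of means were 6.96 and 4.54 in controls and 7.85 and 7.79 in knockouts, for Cd3e and Cd3g. They were 3.89 and 2.88 in controls without thermoneutral control 3, and 4.31 and 4.25 in knockouts without thermoneutral knockout 3. At room temperature these values rest on few reads, 5 to 16 for Cd3e and 4 to 16 for Cd3g.

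By these counts every thermoneutral control lay above every room-temperature control for 7 of 9 members, all but Cd79a and Ms4a1. The same held among knockouts for 7 of 9, all but Jchain and Ms4a1. Among all tested genes the share was 28.2% in controls and 36.9% in knockouts, and since the genes were chosen on this contrast nothing is read from the comparison. Leaving out any 1 animal gave 7 or 8 of 9 in either genotype.

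Igkc and Igha led in both sets of controls, and the order of the rest varied. Room-temperature control means fell from Igkc (10.3 ± 6.76 SD, n = 4) through Igha (5.06 ± 3.09), Ighm (5.02 ± 2.21), Cd79a (1.73 ± 0.886) and Jchain (1.05 ± 0.430) to Cd3g, Cd79b, Cd3e and Ms4a1, all below 0.5. Igha and Ighm did not differ beyond their spread there. In thermoneutral controls the order was Igkc (239 ± 193, n = 3), Igha (184 ± 150), Jchain (13.4 ± 11.2), Ighm (12.5 ± 2.59) and Cd79a (2.97 ± 0.313), with Cd3g (2.0 ± 1.30), Cd3e (1.92 ± 1.5), Cd79b (1.29 ± 0.257) and Ms4a1 (0.218 ± 0.109) last. The spreads of Igkc and Igha overlapped, as did those of Jchain and Ighm and those of Cd3g, Cd3e and Cd79b. Knockout means ran from Igkc (33.0 ± 23.3, n = 4) and Igha (19.9 ± 15) through Ighm (5.30 ± 1.48), Jchain (2.69 ± 1.66) and Cd79a (1.11 ± 0.395) at room temperature. At thermoneutrality they ran from Igkc (222 ± 223, n = 3) and Igha (163 ± 174) through Ighm (26.7 ± 15.2), Jchain (13.5 ± 14), Cd79a (6.87 ± 7.01) and Cd79b (4.22 ± 3.91). In thermoneutral knockouts the SD was larger than the mean for Igkc, Igha, Jchain, Cd79a and Ms4a1.

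The genes were chosen on the temperature difference and not on genotype, although earlier results of these data were known. The genotype comparison was tested on log2(scaled FPKM + 1), where each library was divided by its median ratio to the others over nuclear genes. It used limma over all 13079 genes with Benjamini-Hochberg adjustment. At room temperature 0 of the 8 tested members passed an adjusted p of 0.05, against 1.97% of all tested genes. None had an unadjusted p under 0.05 and none passed with limma voom on recovered reads. Cd79b, Cd3e and Cd3g lay below 1 FPKM in every room-temperature animal and passed the filter only through thermoneutral animals. The scale understates changes at such levels, so the lack of a call for these genes says little. Igkc and Igha had the largest differences, with knockout minus control at 1.21 ± 0.63 (SE) and 1.39 ± 0.66 on the log2 scale and adjusted p of 0.382 and 0.331. Control 4 overlapped the knockouts for both genes (Igkc 20.5 FPKM against 13.6 to 65.1; Igha 9.56 against 8.22 to 41.2). Jchain differed by 0.60 ± 0.53 and Cd79a by -0.50 ± 0.38, and the remaining 4 tested members were between -0.15 and 0.12.

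At thermoneutrality 0 of 8 tested members passed, against 14.1% of all tested genes, again with none under an unadjusted p of 0.05 and none by voom. Cd79b had the largest difference, 0.74 ± 0.35 (limma, adjusted p = 0.185), and was higher in 2 of 3 knockouts than in every control. Ighm differed by 0.56 ± 0.42, Igha by -0.74 ± 0.76, Igkc by -0.57 ± 0.73 and Jchain by -0.42 ± 0.61. Cd79a, Cd3e and Cd3g differed by 0.40 ± 0.44, 0.36 ± 0.41 and 0.40 ± 0.37. Without knockout 3 these 3 were at -0.27, -0.12 and -0.07. Without knockout 2, Cd79b (1.15, adjusted p = 0.0258) and Ighm (1.18, adjusted p = 0.0162) passed in limma; over all alternatives their adjusted p ran from 0.0124 to 0.668 and from 0.0162 to 0.833. The ranges of knockouts and controls overlapped for all 9 members at both temperatures, while 36.8% of tested genes did not overlap at thermoneutrality.

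**Figure D3:**
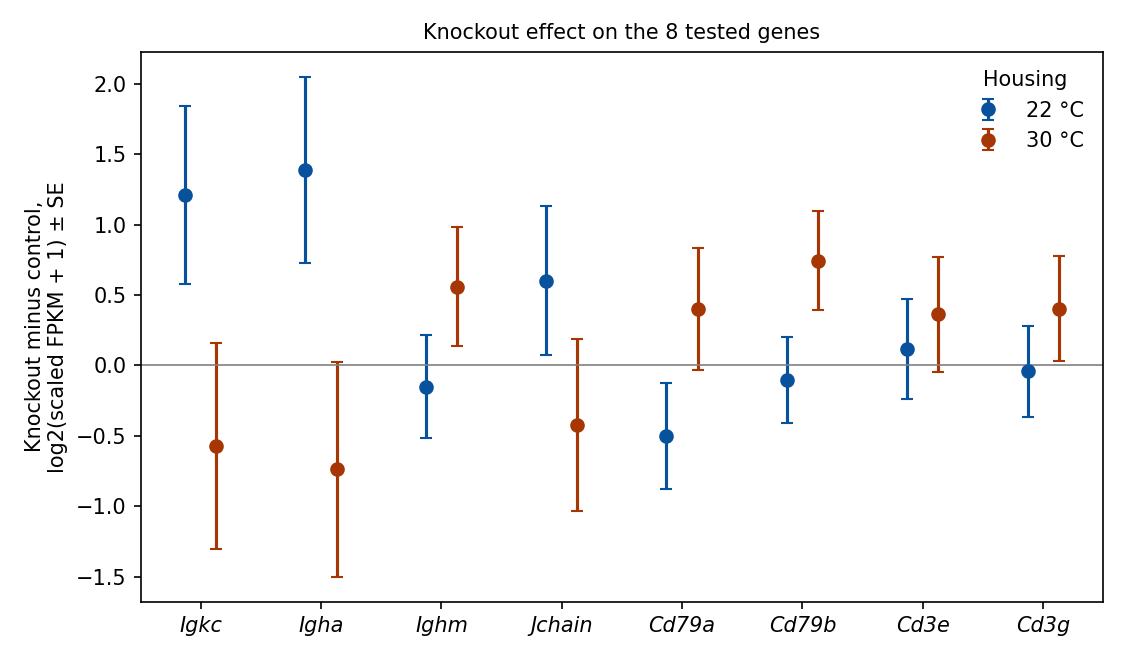
Knockout minus control on the log2(scaled FPKM + 1) scale for the 8 tested genes at each housing temperature, with standard errors from limma. No gene passed an adjusted p of 0.05; Igkc and Igha lie at 1.21 and 1.39 at room temperature and at -0.57 and -0.74 at thermoneutrality.

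Ms4a1 was compared by an exact two-sided permutation test on FPKM. The p was 0.2 at room temperature, where the smallest possible is 0.0286, and 0.6 at thermoneutrality, where the design cannot go below 0.1. The difference between the 2 knockout effects passed for 0 of 8 members and 0 of all genes (0.0%), with 1694 genes under an unadjusted p of 0.05 and a smallest adjusted p of 0.0521 (limma). Igha had the largest such difference among members, 2.13 ± 1.01 (room temperature minus thermoneutrality, limma adjusted p = 0.396). This contrast also equals the difference between the temperature effects of the genotypes. The genes were chosen on temperature differences, so nothing is read from the member values of this contrast.

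Members varied together in sets across animals, described here by Pearson correlations of log2(scaled FPKM + 1) after subtracting group means, over 14 animals that share the same scaling and depths of 15.9 to 21.3 M fragments. Igkc with Igha gave 0.96, Igha with Jchain 0.96, Cd79a with Cd79b 0.90 and Cd3e with Cd3g 0.92. Igha with Cd79a gave -0.33 and Igha with Ms4a1 -0.56, whereas Cd79b with Cd3e gave 0.80. Ighm stood between, at 0.14 with Igha and 0.51 with Cd79b. With 3 or 4 animals a group these values depend strongly on the few animals with high levels.

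**Figure D4:**
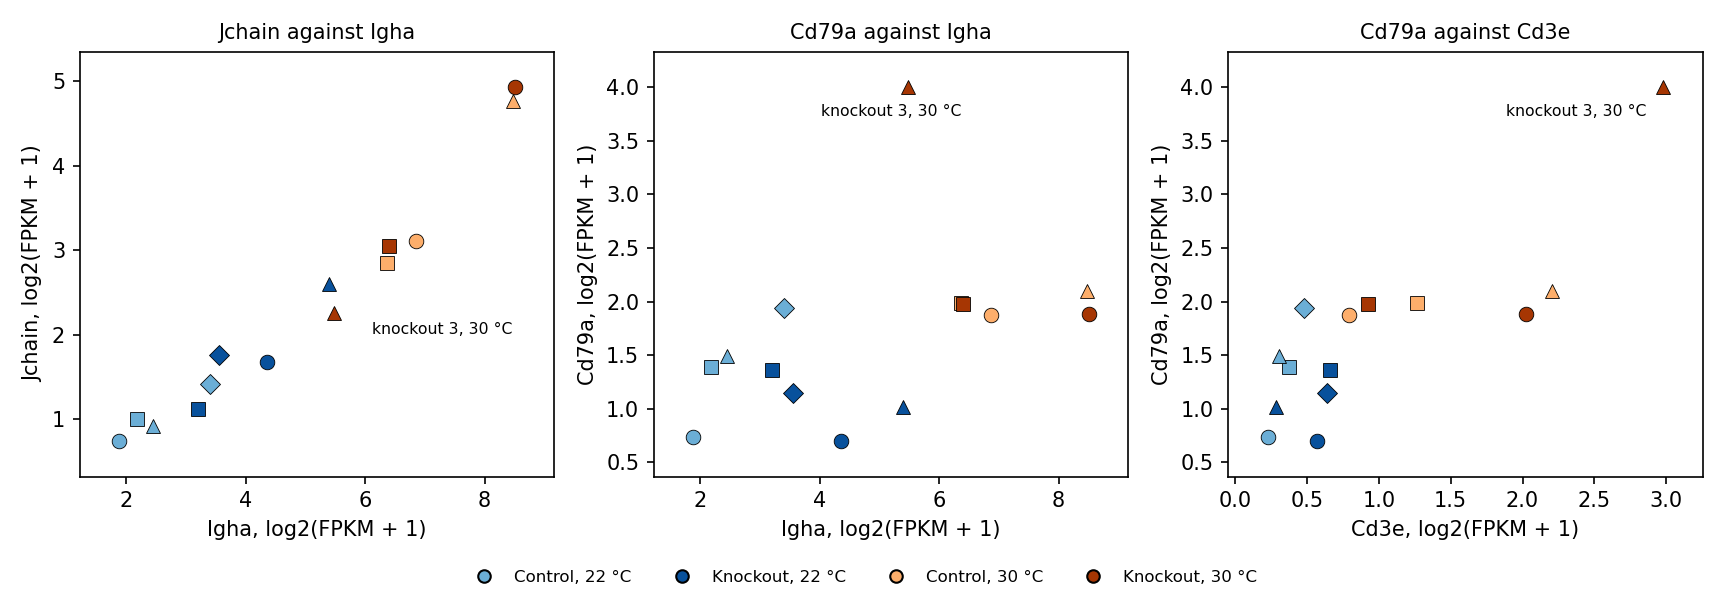
Each point is an animal, with log2(FPKM + 1) of Jchain against Igha, Cd79a against Igha and Cd79a against Cd3e (colour gives the group, shape the animal number). Jchain and Igha follow each other, while thermoneutral knockout 3 stands apart in Cd79a (15 FPKM) at an Igha level of 43.4.

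Genes outside the 9 whose pattern was most like each set were taken as the 5 with the highest correlation, using all values, which hold the temperature difference that chose the 9 genes, and again on deviations from group means, which do not. For the mean of the 4 antibody genes these were Bst2, Psmb10, Ogfr, H2-T10 and H2-Q6 (0.94 to 0.96), among which Psmb10 is an immunoproteasome subunit and the H2 genes encode class I histocompatibility proteins. On deviations 0 of these 5 recurred, and the genes were Ighg2c (0.90), Ly96, Ighv1-80, Igkv8-24 and Gpx1. For the mean of the 3 B cell genes they were Ccr7 (0.97), a receptor that guides lymphocytes to lymph nodes, Tcf7, Acta2, Tbc1d10c and Kif21b. On deviations 3 of them recurred, Tcf7 (0.98), Ccr7 (0.97) and Kif21b (0.92), beside Tenm2 and S1pr4. For the mean of the 2 T cell genes they were Lck (0.99), the kinase that starts T cell receptor signalling, Cd3d, Cd6, Slfn1 and Cd4, and on deviations the same 5 were found (0.95 to 0.99).

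Thermoneutral knockout 3 stood apart in lymphocyte markers. It had the highest level of the 14 animals for 19 of 24 genes of the B cell list and 25 of 29 of the T cell list, but for 2 of 14 plasma cell, 2 of 12 cytotoxic cell and 0 of 12 macrophage genes. Of the B and T cell genes together, 44 of 53 were highest in it, against at most 5 in any other animal. The share over all tested genes was not counted. Summed over the B cell list this animal reached 105 FPKM, against 29.2 and 51.9 in the other thermoneutral knockouts and 18.0 to 25.3 in thermoneutral controls. It was also highest for 8 of 12 genes of the lymph node and lymphatic list. Glycam1, a glycoprotein of the high endothelial venules through which lymphocytes enter lymph nodes, was 5.47 FPKM in it, 0.0834 in room-temperature knockout 2 and 0 in the other 12 libraries. The lymphoid chemokines Ccl21a and Ccl19 were 23.3 and 2.54, against at most 6.42 and 0.789 elsewhere, and Ltb, lymphotoxin beta, was 26.1 against at most 6.65. Chst4, another gene of high endothelial venules, was at 0 in all animals. The part of these transcripts in the member values of that animal was not tested. Thermoneutral control 3, high for Igkc, Igha and Jchain, had 7.19 FPKM of the muscle actin Acta1, the most abundant gene of the muscle list before Tnnt3 and Tnni2, against 924 to 5190 in the other thermoneutral animals, and the part of this in its values was not tested either.

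Other lymphocyte genes were compared between genotypes by 10 lists. These lists, and those of other cells below, were drawn up with earlier results of these data known. At room temperature 0 of 122 tested genes on these lists passed limma at an adjusted p of 0.05, against 1.97% of all tested genes, and none passed with voom. An unadjusted p under 0.05 was found for 8 of them (6.56%), against 15.8% of all tested genes. The lists had a median difference of 0.16 on the log2 scale against 0.002 over all genes. At thermoneutrality 20 of the 122 were higher in knockouts and 2 lower, against 8.82% of all tested genes higher and 691 of 13079 lower. The median was 0.19 against 0.065 over all genes. Of the listed genes 27.9% had an unadjusted p under 0.05, against 28.3% of all tested genes. Several of the 20 higher genes, given below, passed the filter only through the thermoneutral knockouts. The share of higher genes is therefore partly set by the filter.

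Markers of other cells moved between the same groups. At thermoneutrality the macrophage list was higher in knockouts for 10 of its 12 genes, against 8.82% of all tested genes, with a median of 1.85. None of its genes was at 0 in all animals. The macrophage list summed to 2240, 851 and 1350 FPKM in knockouts 1 to 3 and to 140 to 450 in controls. Lyz2, C1qb and C1qa, for lysozyme and complement chains, were its most abundant genes (means over all 14 animals of 200, 63.1 and 63.1 FPKM). The leukocyte list, led by Cd52, Laptm5 and Coro1a (21.3, 21.0 and 19.0), was higher for 8 of 10. The brown adipocyte list was lower for 5 of 11 tested genes (3 without knockout 1, knockout 3, control 2 or control 3), against 691 of all 13079 tested genes. Its sums were 7340 to 9340 FPKM in knockouts and 11000 to 13400 in controls. The part of these shifts in the calls on the lymphocyte lists was not tested.

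Of the antibody constant region list, 0 of 7 tested genes passed at thermoneutrality, none of them under an unadjusted p of 0.05 and none by voom, with a median of -0.01. Iglc2 passed with sample weights, Ighm and Iglc2 passed without knockout 2, and the median ran from -0.65 to 0.53 on leaving out 1 animal. Iglv1, Igkv1-110 and Igkv1-117 were the most abundant variable segments (means over all 14 animals of 4.57, 3.70 and 2.51 FPKM). Of 46 tested variable segments, Igkv5-39 was higher in knockouts (1.53 ± 0.45, adjusted p = 0.0380) and Ighv5-9-1 (-1.21 ± 0.26, 0.00950) and Igkv3-2 (-1.24 ± 0.31, 0.0176) were lower in limma. Over all tested genes 8.82% were higher and 691 of 13079 lower. Igkv5-39 was 13.1, 1.80 and 11.7 FPKM in thermoneutral knockouts and 1.65, 0.723 and 1.90 in controls, so knockout 2 lay among the controls. None of the 3 was called with a pseudocount of 0.1. Igkv5-39 was also not called by voom, with no filter, with the thermoneutral groups fitted alone, without the 2 room-temperature controls whose identifiers begin with R, without thermoneutral knockout 1 or 3, without any 1 of the thermoneutral controls, or without room-temperature control 2 or knockout 2. Igkv3-2 was not called without thermoneutral knockout 3 or control 3, and Ighv5-9-1 was not called with the thermoneutral groups fitted alone.

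Of 8 tested B cell genes, 4 were higher in thermoneutral knockouts, against 8.82% of all tested genes, with a list median of 0.91. They were Cd72 (1.58 ± 0.30, limma adjusted p = 0.00511) and Cd22 (1.08 ± 0.25, 0.0128), which dampen B cell receptor signals, Cd180 (1.47 ± 0.32, 0.00979), a Toll-like receptor homologue, and the tetraspanin Cd37 (1.32 ± 0.34, 0.0224). Cd72 was 9.15, 4.12 and 7.47 FPKM in thermoneutral knockouts and 0.630, 0.964 and 2.24 in controls, with no overlap. Cd180 was 8.35, 2.46 and 3.45 against 0.376, 0.431 and 1.32. Cd72, Cd180 and Cd22 would not have passed the filter without the thermoneutral knockouts, and Cd22 was at most 0.768 FPKM in other animals. The share of 4 of 8 is therefore partly set by the filter, and nothing is read from it. Cd72 and Cd180 ranked the knockouts as the macrophage sum did, with knockout 1 highest. Cd22 was 2.58, 1.14 and 4.28 FPKM in knockouts 1 to 3, and Cd37 was 18.3, 7.7 and 20.8. Both were highest in knockout 3, as was Cd79a, which was not called. With 3 knockouts such an order can match by chance, and the cell source of these transcripts was not tested. Without knockout 3, of the 4 genes Cd180 and Cd72 were called and Ly6d was lower; without knockout 1, control 1 or control 2 the calls were Cd180 and Cd72. With the thermoneutral groups fitted alone Cd72 was the single gene that passed.

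Xbp1, Txndc5 and Creld2, genes of the secretory pathway that many cells use, were the most abundant of the plasma cell list (44.6, 25.3 and 12.4 FPKM over all 14 animals), and Trbc2, Trbc1 and Lat of the T cell list (4.16, 3.01 and 2.63). Of 11 tested plasma cell genes, Sdc1 was higher (1.23 ± 0.31, limma adjusted p = 0.0188), where 8.82% of all tested genes were higher. Sdc1 encodes syndecan-1, a proteoglycan of plasma cells that other cells also make. It measured 22.4, 7.25 and 8.29 FPKM in thermoneutral knockouts and 2.91, 3.19 and 3.97 in controls. Of 18 tested T cell genes, Il7r, the receptor for interleukin 7, was higher (1.54 ± 0.31, adjusted p = 0.00687), at 7.35, 2.38 and 3.99 against 0.164, 0.388 and 1.38, while Cd3e and Cd3g were not called. Sdc1 and Il7r also ranked the knockouts as the macrophage sum did, and the cell source of their transcripts was not tested. Neither gene passed when the thermoneutral groups were fitted alone, and Sdc1 did not pass without control 1 or control 2. None of 5 tested cytotoxic cell genes, a list led by Ccl5, Nkg7 and Gzma (3.76, 1.64 and 0.955), passed limma, none had an unadjusted p under 0.05 and none passed by voom. Of 5 tested lymph node and lymphatic genes, a list led by Ccl21a, Ltb and Flt4 (4.14, 3.66 and 3.0), 0 passed, with 2 under an unadjusted p of 0.05 and none by voom. Ccl21a, Ltb and Pdpn passed with sample weights or without knockout 2, Ccl21a and Pdpn in FPKM as deposited or with equal totals, and Ccl21a without control 1. Haemoglobin and other red cell genes, a guide to blood in the tissue and led by Hbb-bs, Hba-a1 and Hba-a2 (348, 332 and 55.1), summed to 452 to 704 FPKM in thermoneutral knockouts and 478 to 871 in controls, and 0 of 5 tested passed at either temperature, none of them under an unadjusted p of 0.05 or by voom.

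Of the 10 lymphocyte lists, the B cell receptor pathway had the largest share of its tested genes called. Lyn, Rasgrp3 and Ptpn6 were its most abundant genes (6.86, 5.53 and 4.81 FPKM over all 14 animals). Of 17 tested genes of the B cell receptor pathway, 12 were higher in thermoneutral knockouts and 0 lower, against 8.82% of all tested genes higher. Their median was 1.09. Btk, Blnk and Cd22, which were among the higher genes, would not have passed the filter without the thermoneutral knockouts. The share of this list is therefore partly set by the filter, and nothing is read from it. The kinases Syk (1.80 ± 0.33, limma adjusted p = 0.00463) and Btk (1.09 ± 0.21, 0.00644), the adaptor Blnk (1.29 ± 0.24, 0.00521) and the kinase Prkcb (1.37 ± 0.24, 0.00407) were among the 5 with the smallest adjusted p-values. Syk was 17.1, 7.04 and 7.98 FPKM in thermoneutral knockouts and 1.01, 1.30 and 3.08 in controls, ranking the knockouts as the macrophage sum did. Of the 14 tested pathway genes that are not on the B cell list, 11 were higher (median 1.24), and of the 3 that are on it, Cd22 was higher while Cd79a and Cd79b were not called. Many of the first set are used by myeloid cells too, and which cells these values come from was not tested. Leaving out 1 thermoneutral animal in turn gave 7 to 14 higher genes (7 without knockout 1, 8 without knockout 3, control 1 or control 2), and fitting the thermoneutral groups alone gave 5. The leukocyte list gave 1, 3, 2 and 0 higher genes without knockout 1, knockout 3, control 1 and control 2, while the macrophage list gave 10 or 11 without any 1 of the thermoneutral animals.

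**Figure D5:**
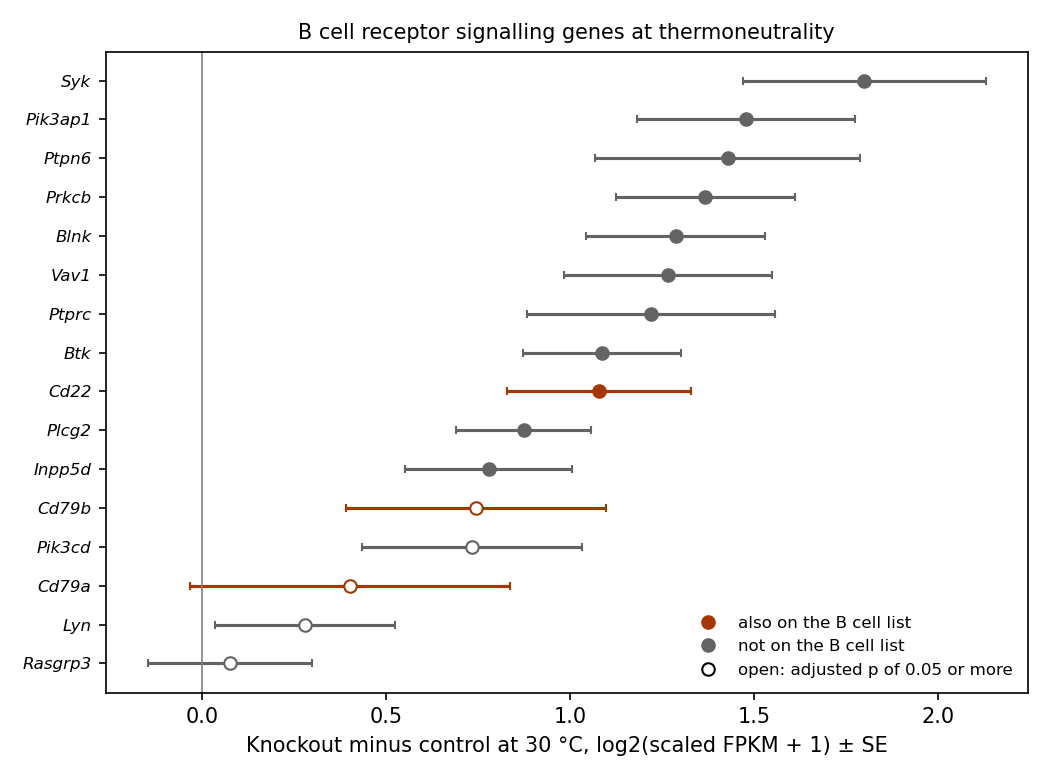
Knockout minus control at thermoneutrality on the log2(scaled FPKM + 1) scale for 16 of the 17 tested genes of the B cell receptor pathway, with standard errors from limma; filled points passed an adjusted p of 0.05. Cd79a and Cd79b, the receptor's own chains, lie at 0.40 and 0.74, below Inpp5d (0.78) and every other plotted pathway gene that is not on the B cell list and passed.

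Of 16 tested genes of the T cell receptor pathway, 4 were higher at thermoneutrality and 0 lower, against 8.82% of all tested genes higher. Among the 4 were Csk, Vav1 and Ptprc (limma, adjusted p of 0.00729 to 0.0302), and the list median was 0.39. Without knockout 1, or with the thermoneutral groups fitted alone, 2 passed, Csk among them, and without knockout 2, 6 passed. Plcg1, Csk and Fyn were the most abundant of the list (20.2, 17.5 and 7.82 FPKM over all 14 animals). Csk encodes a kinase that restrains Lck, and Ptprc the phosphatase CD45 of all leukocytes. Lck itself was 3.43, 1.39 and 9.34 FPKM in thermoneutral knockouts and 0.913, 1.47 and 4.37 in controls, overlapping. Of 4 tested survival, homing and export factors, a list led by Cxcl12, Tgfb1 and Ccl21a (24.2, 24.1 and 4.14), Tgfb1, a cytokine that promotes the switch to IgA, was higher (1.01 ± 0.25, limma adjusted p = 0.0184). Tgfb1 did not pass without knockout 1, knockout 3 or control 1. Pigr, the transporter of IgA across epithelia, was at most 0.306 FPKM in 13 animals and 1.54 in thermoneutral knockout 1.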

How the data were processed

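RNA sequencing of brown adipose tissue from 14 mice was used as FPKM values per gene, deposited by the authors in 1 table with a column per animal. The genome build is mm9 per the submitters' processing notes; aligner, counting tool and strand setting are not given in the sources used here. Symbols came from GENCODE M21 for 34490 of 35275 rows. Fragment depths (15.9 to 21.3 M) and reads per gene were worked out from the spacing of low FPKM values; 90.3% to 92.1% of low values of single-transcript genes were whole within 0.05. Read limits cover counting error only.

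Groups follow the labelled genotype and temperature; the labels give no pairing. The members and gene lists were chosen with earlier results of these data known. Libraries were scaled by the median ratio over 10049 nuclear genes above 1 FPKM in every animal. log2(scaled FPKM + 1) of the deposited values was fitted with limma 3.58.1 (R 4.3.3; group means over 4 groups, eBayes with trend); an adjusted p under 0.05 was called. The deposited FPKM of Ms4a1 were compared by exact permutation. The fit was tested on simulated data. Fold changes on this scale understate changes of low genes.

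Named besides the members were the 3 most abundant genes of each list, called genes of the lymphocyte lists (at most 5 in each direction, by smallest adjusted p), the 5 genes most like each set, and Lrpprc, Xist and Ddx3y. Glycam1, Ccl19, Chst4, Ighg2b, Pigr, Lck, Ly6d, Iglc2 and Pdpn were picked for naming once their values were known. The 26 alternatives covered pseudocount, filter, scaling, fit, sample weights, voom on recovered reads and leaving out animals; permutation of scaled Ms4a1 was added after seeing the data. Iglc1, Iglc3, Ighd and Trdc were not analysed here, and values of some listed genes are not reported here. Promoters are from RefSeq, and plots were made with Python 3.11.15 and matplotlib 3.10.9.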

Additional observations from a re-analysis of the deposited data

Results flagged for a closer look

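Igkc in room-temperature controls was flagged because 1 animal lay far from the others: control 4 had 20.5 FPKM, against 6.80 to 7.13 in controls 1 to 3. It was the single flag among 22 sets of 4 animals examined, and chance flags about 1 in 20. Sets of 3 animals were not examined. Its Igha of 9.56 FPKM and Jchain of 1.66 FPKM were also the highest of its group. The identifier of this control begins with R, unlike most others. That of control 3 does too, and control 3 had 7.13 FPKM of Igkc, 4.45 of Igha and 0.879 of Jchain.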

How the results depend on the processing

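At room temperature and for the difference between the knockout effects, 0 members passed under each alternative run. At thermoneutrality 1 passed with sample weights (Cd79b, 1.224, limma adjusted p = 0.0124), and leaving out 1 animal gave 0 to 2, with 2 without knockout 2. Some directions turned. At room temperature Ighm (-0.15) was 0.099 as deposited and 0.099 with sample weights, 0.131 without the 2 controls with R identifiers, and -0.26 to 0.073 when leaving out 1 animal. Leaving out 1 animal gave -0.187 to 0.020 for Cd79b and -0.148 to 0.034 for Cd3g, which was 0.050 as deposited and 0.004 with equal totals. At thermoneutrality leaving out 1 animal gave -1.384 to 0.036 for Igkc (positive without control 3), -1.198 to 0.170 for Jchain (positive without control 3 or knockout 3), and -0.272 to 0.741 for Cd79a, -0.117 to 0.877 for Cd3e and -0.066 to 0.779 for Cd3g (negative without knockout 3). The difference between effects ranged from -0.76 to 0.233 for Cd3e and -0.821 to 0.024 for Cd3g. The cause was not tested. Over all genes, calls ranged from 70 to 3248 at room temperature (258 as reported), 877 to 4571 at thermoneutrality (1845) and 0 to 213 for the difference (0). No paired analysis was possible because the labels give animal identifiers and no shared numbers. Limits are the 3 or 4 animals a group and, for Ms4a1, Cd79b and the CD3 genes at room temperature, fewer than 20 reads per library.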
